A study of Drosophila melanogaster and Drosophila pseudoobscura and Drosophila virilis with 4 samples.

Results

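The comparison described here sets the open chromatin of *D. pseudoobscura* directly against that of *D. virilis* in one tissue, the eye-antennal imaginal disc. Open chromatin was measured by FAIRE-seq, in which DNA not bound up in crosslinked nucleosomes is recovered and sequenced, so that a tall peak marks an accessible region. All 19424 peaks of the data set entered the comparison, and 2 of the 4 libraries carry it, 1 from each of these species. The *D. pseudoobscura* library came from the wild-type stock UCSD:14011-0121.94 and the *D. virilis* library from the wild-type stock UCSD:15010-1051.118. The other 2 libraries came from *D. melanogaster*, one from the Canton S strain (stock Bloomington:1, called Canton-S below) and one from a line of genotype P{neoFRT}82B (FRT82). All 4 were made from discs of wandering larvae of the third instar, and neither the number of discs nor an age in hours was taken from the labels.

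The eye-antennal disc is the larval epithelium that gives rise to the compound eye, the antenna and part of the head capsule of the adult fly. Its accessible regions include promoters and the enhancers bound by the transcription factors of eye and antennal development. *D. melanogaster* and *D. pseudoobscura* belong to the subgenus Sophophora, whereas *D. virilis* belongs to the subgenus Drosophila and is the more distant of both. In *D. pseudoobscura* the chromosome arm that corresponds to 3L of *D. melanogaster* is fused to the X, which it is not in *D. virilis*. Markers of disc cells could not be checked, because the libraries hold DNA and not transcripts.

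The reads of each species were mapped to its own genome and carried over to *D. melanogaster* coordinates (release 5), so each peak is named by its place in that genome, from its start to its end as deposited. The length of a peak ranged from 151 to 3029 bp (median 289 bp). The reads counted over the peaks came to 4733792 for *D. pseudoobscura* and 3009250 for *D. virilis*, with medians of 146 and 98 reads a peak, and to 3407230 in Canton-S and 1386805 in FRT82. Peak height is given as the deposited RPKM, reads scaled by peak length and library depth after the normalization between libraries. The medians lay close together, at 28.1 RPKM in *D. pseudoobscura*, 26.8 RPKM in *D. virilis*, 28.4 RPKM in Canton-S and 28.7 in FRT82. With 1 library a species, this species difference has no replicate check and no p-value. The difference between the 2 *D. melanogaster* strains, which includes any difference in genotype, is the only spread between libraries that the data hold. Intervals given with a fold are 95% intervals for the counting of reads in those 2 libraries and cover counting error only.

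Peak heights in *D. pseudoobscura* and *D. virilis* were only loosely related. Across peaks, which share their libraries and are not independent, the log2 heights correlated with Pearson's r = 0.24 and Spearman's rho = 0.24, whereas those of Canton-S and FRT82 correlated with Pearson's r = 0.81. The median peak differed 1.71-fold between the 2 species in either direction and 1.30-fold between the 2 strains. The log2 ratio of *D. pseudoobscura* to *D. virilis* had a median of 0.03, quartiles of -0.74 and 0.81, and an SD over peaks of 1.21, against an SD of 0.61 for the 2 strains. The median counting error of the log2 ratio was 0.20. The ratio thus spread over a wider range than both the strains and the counting of reads.

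A height difference of 2-fold or more was found at 7587 peaks, which is 39.1% of all peaks. Of these, 3988 (20.5%) were higher in *D. pseudoobscura* and 3599 (18.5%) were higher in *D. virilis*. Between the 2 *D. melanogaster* strains 1891 peaks (9.74%) differed by as much. The gap between the pairs widened with the fold. At 4-fold or more there were 1039 peaks higher in *D. pseudoobscura* and 907 higher in *D. virilis*, against 80 between the strains. At 8-fold or more there were 140 and 147, against 3, and at 16-fold or more 11 and 20, against 0. The counting interval of the ratio left out equality at 3979 of the 3988 and 3597 of the 3599 peaks, and it lay wholly beyond 2-fold at 2172 and 1954 of them. These peaks were picked for a ratio of 2-fold or more in the same libraries, so leaving out equality follows largely from that rule. The total changed little with the scaling of the libraries, but which species had more of the higher peaks did not hold. The share of the 2-fold peaks that was higher in *D. pseudoobscura* was 52.6% with the deposited RPKM, 50.4% with TMM-scaled counts and 45.5% with RPKM computed from the counts.

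**Figure D1:**
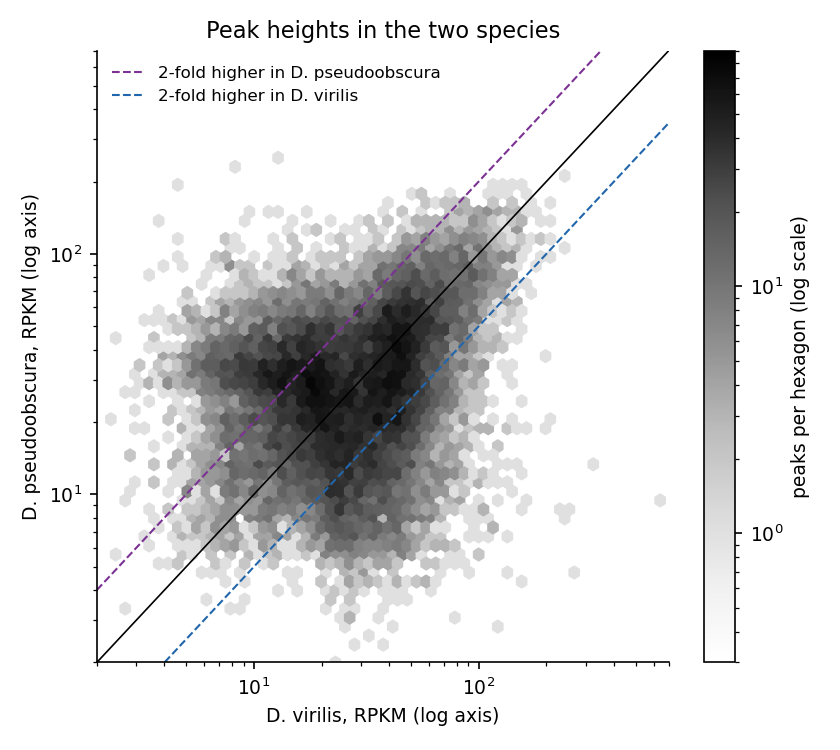
Height of the 19424 peaks in *D. virilis* (x axis) and *D. pseudoobscura* (y axis), both in RPKM on log axes, with darker hexagons holding more peaks. The solid line marks equal height and the dashed lines a 2-fold difference, beyond which lie 3988 peaks above and 3599 peaks below.

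In the plot of peak heights the points filled a shape with a side arm along each axis, one of peaks tall in *D. pseudoobscura* and low in *D. virilis* and one of the reverse. At the peaks higher in *D. pseudoobscura* the median height was 38.5 RPKM in that species and 12.1 RPKM in *D. virilis*. At the peaks higher in *D. virilis* it was 39.8 RPKM in that species and 12.1 RPKM in *D. pseudoobscura*. The list of peaks gathers the regions called in each library, so a region called in only one species enters it with a low value in the other.

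The 4 peaks nearest the 2-fold limit inside it were at 2R 19855483 to 19855678 (28.2 RPKM in *D. pseudoobscura* against 14.1 RPKM in *D. virilis*), 2L 12428154 to 12428306 (22.0 and 11.0 RPKM), 2L 9149796 to 9150261 (19.99 and 39.99 RPKM) and 3R 19750002 to 19750309 (25.6 and 51.3 RPKM). The 4 nearest outside it were at 3R 9684724 to 9684902 (26.1 and 13.0 RPKM), 3R 2996993 to 2997458 (27.2 and 13.6 RPKM), 2R 10250591 to 10250766 (19.8 and 39.6 RPKM) and 2R 21120829 to 21121146 (7.05 and 14.1 RPKM). The counting intervals of all 8 ratios reached across the limit. This follows from the choice of the peaks, since each interval was placed around a ratio next to the limit. The side on which such a peak falls is not settled by its counts.

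Peaks with a high mean over both species differed less often than those with a low one. The peaks were put in 5 classes of equal size by the geometric mean of their heights in the 2 species. In the lowest class, from 2.91 to 17.0 RPKM, 52.4% of peaks differed 2-fold or more. The share was 50.8% from 17.0 to 22.1 RPKM, 43.0% from 22.1 to 28.8 RPKM and 33.8% from 28.8 to 41.3 RPKM. In the highest class, from 41.3 to 220.2 RPKM, it was 15.3%. The strains followed the same order in the same classes at a lower level, with 17.1%, 13.5%, 10.1%, 5.66% and 2.29%. The read depth moved with the class. The median in *D. virilis* rose from 41 reads in the lowest class to 273 reads in the highest, and the counting error of the log2 ratio went from 0.34 to 0.11. In the lowest class the share was 58.7% among peaks with a mean of 100 or more reads over both libraries. This alternative was chosen after the data were seen. The class limits the geometric mean of the heights, so peaks of unequal height reach a high mean of reads more easily. The filter thus itself favours peaks that differ, and the 58.7% cannot show what part depth had in the share. The geometric mean of the heights is built from the same values as the ratio and is lowered by a low value in either species. A low share in the highest class is therefore in part built in. The same was therefore asked of the *D. melanogaster* height, which the ratio does not use.

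By their height in *D. melanogaster*, the mean of both strains, 68.0% of the lowest class of peaks (3.34 to 14.5 RPKM) differed 2-fold or more between *D. pseudoobscura* and *D. virilis*. This fell to 45.7%, 30.1%, 27.7% and, in the highest class (45.1 to 246.8 RPKM), 23.8%. Both directions became rarer, from 29.7% to 13.4% for peaks higher in *D. pseudoobscura* and from 38.3% to 10.4% for peaks higher in *D. virilis*. Between the strains, whose own values set these classes, the shares were 14.7%, 21.7%, 8.88%, 2.27% and 1.11%. A region of low height in *D. melanogaster* is on the list because it was called in some library, which need not be one of *D. melanogaster*. The high share in the lowest class can thus in part come from how the list was made, which was not tested.

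The 5 highest peaks by the geometric mean of *D. pseudoobscura* and *D. virilis*, which ranks peaks of unequal height lower, all differed less than 2-fold. The highest, at 3R 12034155 to 12034369, had 206.7 RPKM in *D. pseudoobscura*, 234.6 RPKM in *D. virilis* (1.13-fold, with the order turned by RPKM from the counts and by TMM-scaled counts), 109.1 RPKM in Canton-S and 118.3 in FRT82. A peak close by, 3R 12034442 to 12034701, had 180.8, 157.4, 124.1 and 134.6 RPKM in the same order. Both were taller in *D. pseudoobscura* and *D. virilis* than in either *D. melanogaster* strain. The peak at 3R 8841600 to 8841900 had 158.2, 203.6, 150.7 and 205.4 RPKM, and that at 3R 6182145 to 6182303 had 144.1, 211.3, 167.6 and 153.0 RPKM. At these 2 peaks neither species stood apart from the strains. The remaining one, at 3L 18005050 to 18005302, reached 199.4 RPKM in *D. pseudoobscura* against 159.9 RPKM in *D. virilis*, but only 16.4 RPKM in Canton-S and 44.8 in FRT82.

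The peaks tallest in each species by itself overlapped only in part, and the geometric mean leaves out peaks tall in only one. The 100 tallest peaks of each species shared 19, against 53 for the 2 strains. The 1000 tallest shared 393 (39.3%), against 675 for the strains, and the 5000 tallest shared 2415 (48.3%), against 3710. Of the 1000 tallest, 255 were among the 1000 tallest of all 4 libraries. A further 132 were shared by *D. pseudoobscura* and both strains but not *D. virilis*, and 107 by *D. virilis* and both strains but not *D. pseudoobscura*.

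Short peaks differed more often than long ones. Among the 4477 peaks of 151 to 200 bp, 51.9% differed 2-fold or more, and the share was 44.4% at 201 to 300 bp, 37.1% at 301 to 400 bp and 28.7% at 401 to 700 bp. Among the 1684 peaks longer than 700 bp it was 16.3%. For the strains it went from 14.9% to 2.14%. The correlation of the log2 heights across peaks was -0.00 in the shortest class and 0.46 in the longest. Length brings reads, with a median of 72 reads a peak in *D. pseudoobscura* in the shortest class and 695 in the longest. Among peaks of 151 to 200 bp with a mean of 100 or more reads, a filter chosen after the data were seen, the share was 40.7%. A short peak reaches that many reads more easily if it is tall, so this share does not separate depth from height. Length also goes with height, but the fall with length was seen within the classes of height as well. In the lowest class it went from 59.0% at 151 to 200 bp to 35.7% above 700 bp, where there were only 28 peaks, and in the highest class from 23.9% to 6.86%.

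**Figure D2:**
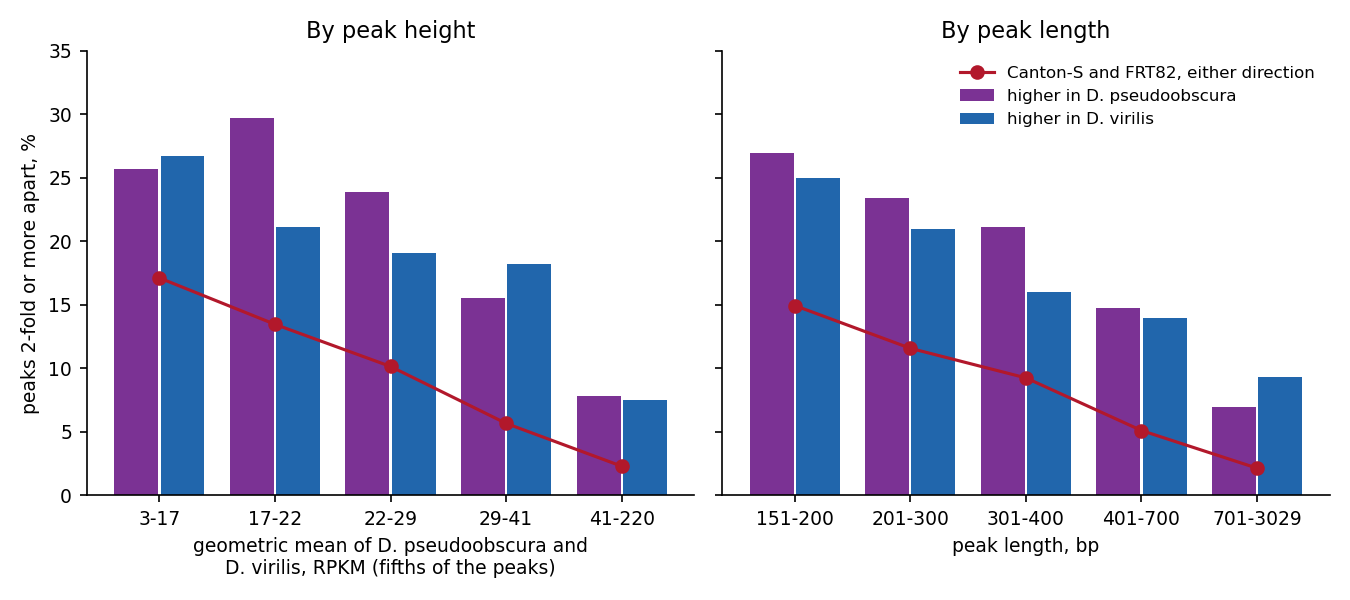
Share of peaks 2-fold or more apart between *D. pseudoobscura* and *D. virilis* by height (left) and length (right), with purple bars for peaks higher in *D. pseudoobscura*, blue bars for peaks higher in *D. virilis* and red points for Canton-S against FRT82 in either direction. Both directions fell towards tall and long peaks, to 7.82% and 7.49% in the highest class and to 6.95% and 9.32% above 700 bp.

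The balance of the directions shifted with length too. Peaks of 301 to 400 bp were higher in *D. pseudoobscura* at 21.1% and in *D. virilis* at 16.01%, and above 700 bp the order turned, with 6.95% and 9.32%. By height, peaks from 17.0 to 22.1 RPKM leaned towards *D. pseudoobscura* (1153 against 822) and those from 28.8 to 41.3 RPKM towards *D. virilis* (708 against 604). The normalization between libraries moved the ratio by a different amount in each height class. Against RPKM computed from the counts, the deposited values shifted the log2 ratio towards *D. pseudoobscura* by a median of 0.30 in the lowest of these classes, 0.21, 0.16 and -0.00 in the next ones, and by -0.04 in the highest, so the balance of directions across heights cannot be told apart from the scaling.

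The chromosome arms differed in the direction of the change more than in its frequency. On 2L, 2R, 3L and 3R between 37.7% and 39.3% of peaks differed 2-fold or more, and on the X 43.6%. The median log2 ratio was 0.05 on 2L, 0.04 on 2R and 0.09 on 3R. It was -0.15 on 3L and 0.19 on the X. Against the joint median of 2L, 2R and 3R, 3L lay 0.21 lower and the X 0.13 higher, and these offsets were -0.22 and 0.13 with either RPKM from the counts or TMM-scaled counts. On 3L, 16.7% of 4430 peaks were higher in *D. pseudoobscura* against 21.1% higher in *D. virilis*, the reverse of the order on 2L, 2R and 3R with the deposited RPKM. On the X, 25.9% of 2289 peaks were higher in *D. pseudoobscura* against 17.7% higher in *D. virilis*.

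The levels show which library moved. The median height on 3L was 25.3 RPKM in *D. pseudoobscura*, where it was 28.7 RPKM on 2L, 2R and 3R together. In *D. virilis* it was 26.6 RPKM on 3L and 26.9 RPKM on those 3 arms. In Canton-S and FRT82 it was 28.8 and 29.9 RPKM on 3L, and 28.2 and 28.5 RPKM on the others. The difference on 3L therefore lay in the *D. pseudoobscura* values. On the X the median was 30.9 RPKM in *D. pseudoobscura* against 26.9 RPKM in *D. virilis*, with 28.6 and 27.8 RPKM in the strains, so there too *D. pseudoobscura* stood apart. The sex of the larvae is not used here, and its part in these levels was not tested.

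**Figure D3:**
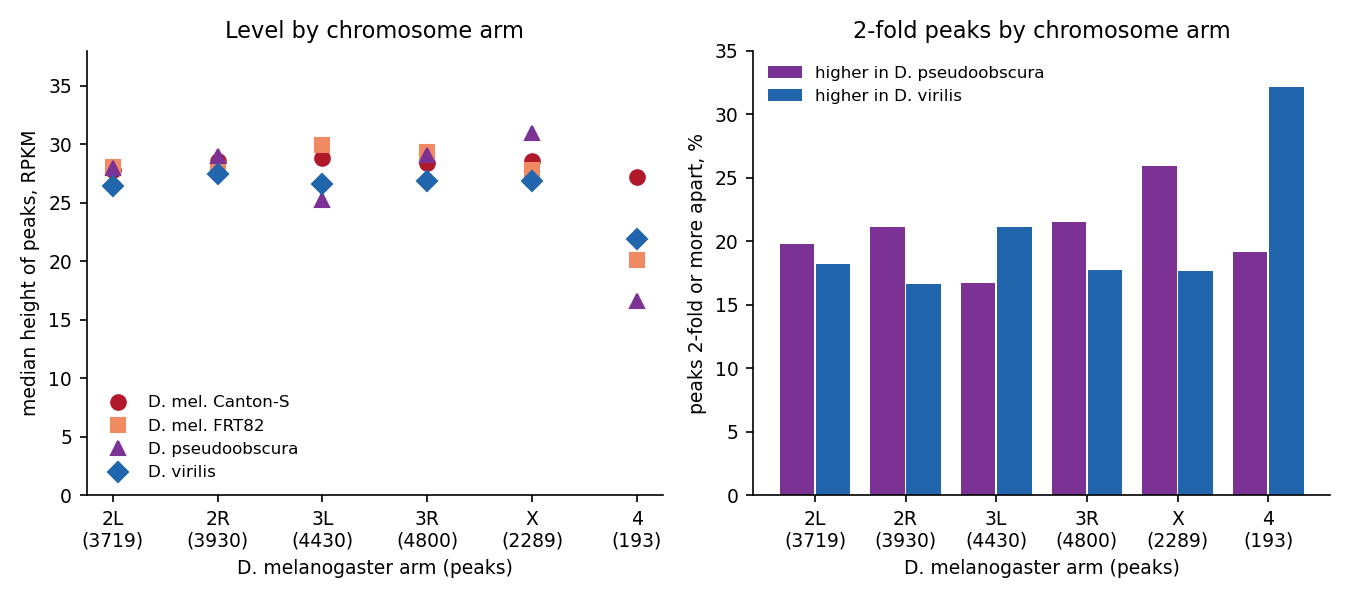
Median peak height in RPKM of the 4 libraries on each *D. melanogaster* chromosome arm (left) and share of peaks 2-fold or more apart in each direction (right), with the number of peaks in brackets. *D. pseudoobscura* is lowest of the 4 on 3L (25.3 RPKM) and on 4 (16.6 RPKM) and highest on the X (30.9 RPKM).

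The offset of 3L was spread along the arm. In windows of 1 megabase with 20 or more peaks, which were laid out after the values had been seen, the median log2 ratio was below 0 in 20 of 23 windows of 3L. It was below 0 in 6 of 23 windows on 2L, 9 of 21 on 2R, 7 of 28 on 3R and 5 of 22 on the X. The medians of single windows ran from -0.38 to 0.11 on 3L and from -0.18 to 0.79 on the X. When each arm was centred on its own median, 19.5% of peaks on 3L were higher in *D. pseudoobscura* and 17.5% in *D. virilis*, and on the X 21.0% and 21.1%. Centring makes the directions on an arm nearly even by its construction, so these shares say nothing of the lean itself.

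Chromosome 4, the small dot chromosome, which is rich in heterochromatin in *D. melanogaster*, held 193 peaks. Of these 99 (51.3%) differed 2-fold or more, 37 of them higher in *D. pseudoobscura* and 62 higher in *D. virilis*. The median height was 16.6 RPKM in *D. pseudoobscura*, 21.9 RPKM in *D. virilis*, 27.2 RPKM in Canton-S and 20.1 in FRT82. The 2 strains lay further apart here than *D. virilis* lay from FRT82. The 63 peaks placed in heterochromatic or unplaced sequence differed at 35 (55.6%), 18 higher in *D. pseudoobscura* and 17 in *D. virilis*.

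Differences were shared by close neighbours. For adjacent peaks no more than 200 bp apart, the log2 ratios correlated with Pearson's r = 0.40 over 2835 pairs. The correlation fell to 0.22 at 500 to 1000 bp, 0.10 at 2000 to 5000 bp and 0.03 at 10000 to 50000 bp. Where both peaks of a pair differed 2-fold or more, they did so in the same direction in 82.1% of 447 pairs within 200 bp and in 52.7% of 469 pairs at 10000 to 50000 bp. Peaks of a pair share their libraries, and pairs within 200 bp can be parts of one open region that was divided. Most 2-fold peaks were nevertheless single under a limit of 5 kb. With peaks of one direction joined while they followed each other within 5 kb, 2470 of the peaks higher in *D. pseudoobscura* and 2343 of those higher in *D. virilis* stood by themselves. Another 512 and 426 lay in runs of 3 or more. A peak with no other within 5 kb counts as single. Of all peaks only 20.5% were 2-fold higher in *D. pseudoobscura* and 18.5% in *D. virilis*, so many single peaks follow from these shares. The number of single peaks to be had without sharing between neighbours was not computed.

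Some runs, picked out after their values were seen, were long. On 3L, 6 adjacent peaks between 20080798 and 20091386 were 5.95-fold to 54.0-fold higher in *D. virilis*, with 34.6 to 255.7 RPKM there and 4.41 to 6.60 RPKM in *D. pseudoobscura*. Canton-S had 4.31 to 10.1 RPKM and FRT82 6.89 to 15.4 RPKM at them, so only *D. virilis* was high over these 10588 bp. On chromosome 4, 6 adjacent peaks between 352643 and 369028 were higher in *D. virilis* by a median of 3.80-fold, with 20.6 to 241.8 RPKM there and 5.21 to 11.1 RPKM in *D. pseudoobscura*. On 2L, 7 adjacent peaks between 19537923 and 19546382 were higher in *D. virilis* by a median of 3.27-fold. In the other direction, 7 adjacent peaks on 2R between 4527192 and 4535349 were higher in *D. pseudoobscura* by a median of 3.17-fold. On 3R, 5 adjacent peaks between 22310034 and 22315746 had 30.8 to 84.7 RPKM in *D. pseudoobscura* and 9.86 to 14.8 RPKM in *D. virilis*, and both *D. melanogaster* strains were nearer *D. virilis* at 5 of 5.

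The 10 largest differences in favour of *D. pseudoobscura* ran from 17.8-fold to 42.7-fold. The largest was at 3R 15412069 to 15412242, with 189.8 RPKM (613 reads) in *D. pseudoobscura* against 4.45 RPKM (7 reads) in *D. virilis*, a 42.7-fold difference (interval 20.6 to 106.6). Canton-S had 14.8 RPKM and FRT82 22.5 RPKM there. The next was at 2R 9342986 to 9343188, with 130.6 RPKM in *D. pseudoobscura* against 3.79 RPKM in *D. virilis*, and 2.33 RPKM in Canton-S and 9.22 in FRT82. Only *D. pseudoobscura* was high at both.

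The peak at 2R 9342986 to 9343188 belonged to a group. At 2R 9344593 to 9345169, also among the 10, *D. pseudoobscura* had 90.1 RPKM and *D. virilis* 3.80 RPKM. Between them, at 2R 9343348 to 9344296, a long peak of 948 bp had 109.1 RPKM (1913 reads) in *D. pseudoobscura* against 7.63 RPKM (80 reads) in *D. virilis*. Canton-S had 5.86 RPKM and FRT82 8.33 RPKM at the long peak. At all 3 peaks *D. pseudoobscura* stood far above the other 3 libraries. The largest differences of the other arms in this direction were at 2L 9547150 to 9547524 (29.6-fold, interval 21.1 to 42.8), X 9397906 to 9398061 (23.0-fold, 9.72 to 71.6), 3L 8002903 to 8003215 (19.0-fold, 8.60 to 52.2) and 4 396666 to 396931 (8.80-fold, 4.52 to 19.6). The lower library had between 5 and 34 reads at the 10 peaks, so the size of the fold is known poorly.

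The 10 largest differences in favour of *D. virilis* ran from 25.2-fold to 65.6-fold. The largest was at X 22295622 to 22296121, with 631.3 RPKM (2731 reads) in *D. virilis* and 9.62 RPKM (72 reads) in *D. pseudoobscura*, a 65.6-fold difference (interval 51.9 to 84.1). Canton-S had 4.37 RPKM and FRT82 8.78 RPKM there. This was the tallest value of any library, since no peak passed 255.7 RPKM in *D. pseudoobscura*, 272.2 RPKM in Canton-S or 241.8 RPKM in FRT82. Next came 3L 20083897 to 20084243 in the run on 3L, with 255.7 RPKM in *D. virilis* and 4.74 RPKM in *D. pseudoobscura*, a 54.0-fold difference (34.0 to 91.4). At both peaks *D. virilis* alone was high.

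The largest differences in favour of *D. virilis* on the remaining arms were at 4 363347 to 363928 (31.8-fold, interval 24.6 to 41.8), 2R 13589736 to 13589906 (30.8-fold, 19.9 to 50.2), 3R 765788 to 766062 (30.1-fold, 17.7 to 55.6) and 2L 16991299 to 16991543 (25.2-fold, 19.1 to 33.8). Both *D. melanogaster* strains were nearer the lower *D. pseudoobscura* value at 10 of these 10 peaks, and at 9 of them with TMM-scaled counts, where the strains split at the other. At the 10 largest in the other direction both strains were nearer *D. virilis* at 6, nearer *D. pseudoobscura* at 3 and split at 1, with the deposited RPKM as with TMM-scaled counts.

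*D. melanogaster* was then placed at every 2-fold peak by which of the 2 species each strain was nearer on the log2 scale. Over all 7587 peaks, both strains were nearer *D. pseudoobscura* at 3321, both nearer *D. virilis* at 2648, and the strains split at 1618. With the deposited RPKM the side depended on the direction. Where *D. pseudoobscura* was higher, both strains were nearer it at 1470 peaks and nearer *D. virilis* at 1647, so 47.2% of the peaks that were not split went with *D. pseudoobscura* (Wilson 95% interval for the share of peaks 45.4% to 48.9%). Where *D. virilis* was higher, both strains were nearer *D. pseudoobscura* at 1851 peaks and nearer *D. virilis* at 1001, which is 64.9% (63.1% to 66.6%). Peaks that neighbour each other are not independent, and all peaks come from the same libraries. The intervals cover neither this nor the scaling of the libraries, so they are no test against an even split.

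This lean rested on the normalization between libraries. With RPKM computed from the counts the shares nearer *D. pseudoobscura* were 50.6% and 47.9%, and with TMM-scaled counts 48.1% and 51.3%. With quantile normalization they were 46.8% and 63.0%. That setting was computed from the deposited RPKM and not from the counts, so it is no independent check of the lean. The levels at the peaks higher in *D. virilis* show where the scalings part. The deposited medians there were 16.3 RPKM in Canton-S, 18.5 RPKM in FRT82, 12.1 RPKM in *D. pseudoobscura* against 39.8 RPKM in *D. virilis*. On the scale of RPKM from the counts they were 77.4, 74.1, 40.6 and 134.7, with the strains higher above *D. pseudoobscura*. RPKM from the counts and TMM-scaled counts use 1 factor a library. At the peaks that differed 2-fold, *D. melanogaster* was near *D. pseudoobscura* about as often as near *D. virilis* under these, and no side was favoured under all 4. Median-of-ratios scaling, also with 1 factor a library, was not used for this placing.

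**Figure D4:**
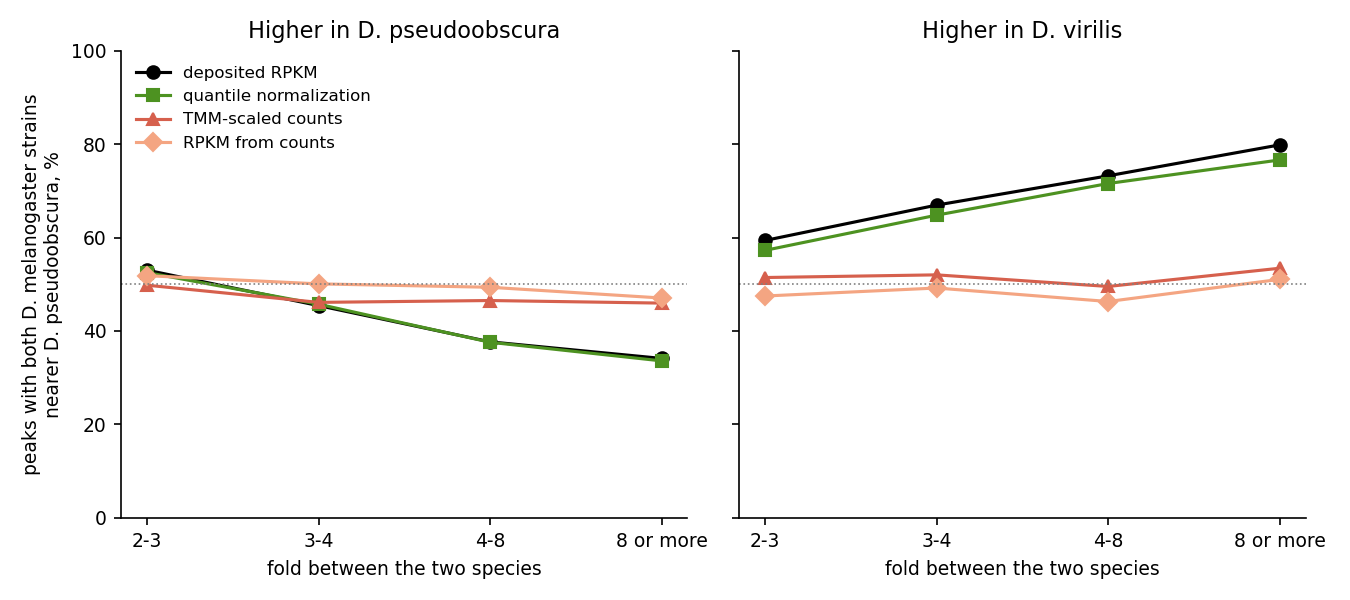
Share of 2-fold peaks at which both *D. melanogaster* strains were nearer *D. pseudoobscura* than *D. virilis*, of the peaks where the strains were not split, by the fold between the 2 species and under 4 scalings of the libraries, for peaks higher in *D. pseudoobscura* (left) and in *D. virilis* (right); the dotted line marks equal shares. With the deposited RPKM the share went from 53.0% to 34.1% on the left and from 59.4% to 79.9% on the right, and with TMM-scaled counts it stayed between 45.97% and 49.8% and between 49.5% and 53.4%.

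With the deposited RPKM, *D. melanogaster* was nearer the lower species more often as the fold grew. For peaks higher in *D. pseudoobscura*, the share nearer *D. pseudoobscura* was 53.0% at 2-fold to 3-fold, 45.4% at 3-fold to 4-fold, 37.7% at 4-fold to 8-fold and 34.1% at 8-fold or more. For peaks higher in *D. virilis*, it was 59.4%, 67.0%, 73.2% and 79.9%. The trend was much smaller with TMM-scaled counts, from 49.8% to 46.0% and from 51.4% to 53.4%. By length, among peaks higher in *D. pseudoobscura* the share nearer that species went from 39.7% at 151 to 200 bp to 66.3% above 700 bp. With TMM-scaled counts it still rose, from 44.4% to 56.4%. Among peaks higher in *D. virilis* it went from 66.9% to 52.1% with the deposited RPKM, but from 51.1% to 51.5% with TMM-scaled counts.

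By arm, the share nearer *D. pseudoobscura* lay between 44.2% on 2L and 51.7% on the X for peaks higher in *D. pseudoobscura* on the 5 large arms. For peaks higher in *D. virilis* it lay between 57.4% on 3L and 76.6% on the X, and with TMM-scaled counts between 42.6% on 3L and 63.9% on the X. The arms thus kept their ends of the range, 3L with the lowest share and the X with the highest, while the level moved with the scaling. On chromosome 4 it was 71.9% of 32 peaks and 65.4% of 52 peaks. *D. melanogaster* also lay outside the range of both species at some of these peaks. Where *D. pseudoobscura* was higher, both strains were above both species at 535 peaks and below both at 505. Where *D. virilis* was higher, the numbers were 275 and 606.

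Clear cases of each combination were found with the deposited RPKM. A clear case had both strains within 0.5 of one species and at least 1 away from the other on the log2 scale. There were 457 with *D. pseudoobscura* high and *D. melanogaster* with it, and 493 with *D. pseudoobscura* high and *D. melanogaster* with *D. virilis*. There were 531 with *D. virilis* high and *D. melanogaster* with *D. pseudoobscura*, and 300 with *D. virilis* high and *D. melanogaster* with it. Peaks at which *D. virilis* alone was high or *D. pseudoobscura* alone was high thus outnumbered those at which either alone was low, with the deposited values. Placed by the nearer species only, this order turned with RPKM from the counts. Where *D. pseudoobscura* was higher, both strains were nearer *D. virilis* at 1388 peaks and nearer *D. pseudoobscura* at 1423. Where *D. virilis* was higher, they were nearer *D. pseudoobscura* at 1599 and nearer *D. virilis* at 1742. With TMM-scaled counts these numbers were 1608, 1488, 1574 and 1497. The following are the 3 largest clear cases of each combination with at least 20 reads in both species.

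High in *D. pseudoobscura* and in *D. melanogaster* was the peak at 3R 13536681 to 13536881, with 255.7 RPKM in *D. pseudoobscura*, 194.8 RPKM in Canton-S, 184.7 RPKM in FRT82 and 13.2 RPKM in *D. virilis* (19.4-fold between the 2 species, interval 13.7 to 28.4). At 2R 6320061 to 6320247 the values were 151.7, 205.4, 159.1 and 9.23 RPKM in the same order (16.4-fold, 10.5 to 27.1). At X 6173654 to 6173995 they were 70.8, 97.5, 71.2 and 6.86 RPKM (10.3-fold, 6.89 to 16.1). *D. virilis* was the one low library at all 3.

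High in *D. pseudoobscura* alone was 2L 9547150 to 9547524, with 236.5 RPKM there, 10.2 RPKM in Canton-S, 10.6 RPKM in FRT82 and 7.999 RPKM in *D. virilis*. The long peak at 2R 9343348 to 9344296 described above was the next, at 14.3-fold (11.4 to 18.1). At X 6802095 to 6802428 *D. pseudoobscura* had 96.4 RPKM, Canton-S 9.22 RPKM, FRT82 5.72 RPKM and *D. virilis* 7.20 RPKM (13.4-fold, 9.05 to 20.7). The other 3 libraries lay close together at these peaks.

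High in *D. virilis* alone was 4 363347 to 363928, within the run on chromosome 4, with 241.8 RPKM in *D. virilis*, 7.60 RPKM in *D. pseudoobscura*, 7.12 RPKM in Canton-S and 10.7 in FRT82. At X 17563121 to 17563448 the values were 146.9, 10.3, 8.37 and 13.9 RPKM in the same order (14.3-fold, 10.7 to 19.5). At X 22286896 to 22287418 they were 112.1, 8.23, 5.86 and 9.08 RPKM (13.6-fold, 10.5 to 17.99). This last peak lies near the tallest *D. virilis* peak at X 22295622.

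High in *D. virilis* and in *D. melanogaster* was 4 81019 to 81414, with 117.0 RPKM in *D. virilis*, 130.4 RPKM in Canton-S, 134.2 RPKM in FRT82 and 13.9 RPKM in *D. pseudoobscura* (8.42-fold, 6.71 to 10.7). At 2L 162174 to 162525 the values were 80.9, 62.1, 61.3 and 11.1 RPKM in the same order (7.31-fold, 5.53 to 9.80). At 2R 2012807 to 2012985 they were 136.4, 126.4, 156.5 and 19.3 RPKM (7.07-fold, 5.32 to 9.53). *D. pseudoobscura* was the one low library here, and the folds were the smallest of the 4 combinations.

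**Figure D5:**
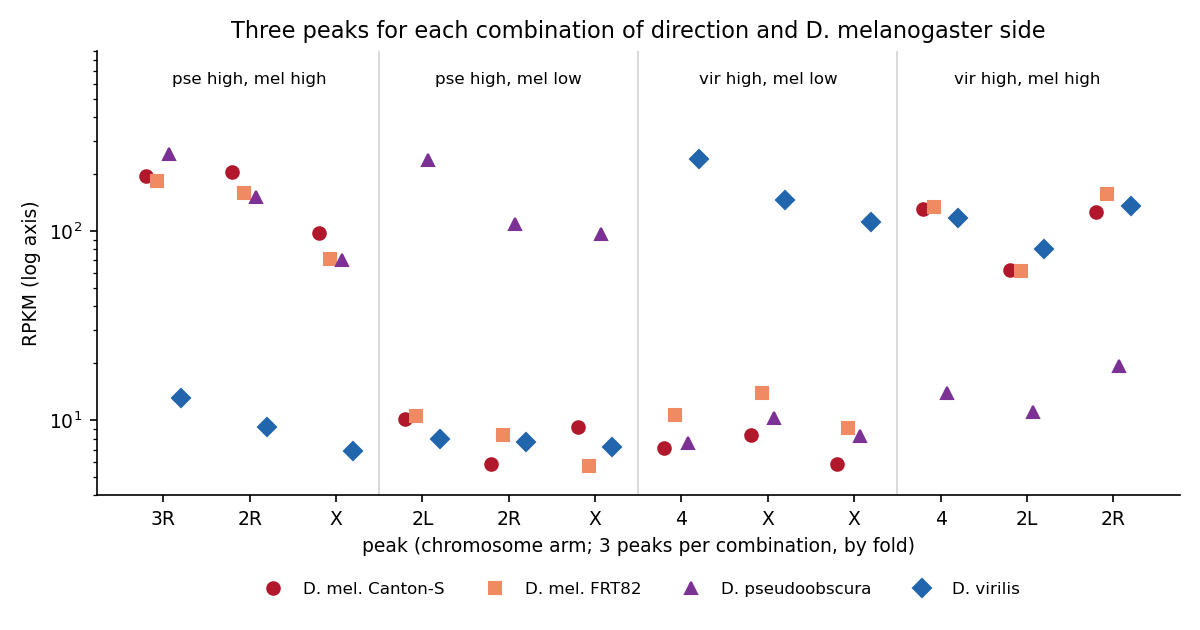
Height in RPKM (log axis) in the 4 libraries at 12 peaks, the 3 with the largest fold for each combination of the higher species (pse, *D. pseudoobscura*; vir, *D. virilis*) and the side taken by *D. melanogaster* (mel), each peak marked by its chromosome arm. Canton-S and FRT82 lie with one species at each peak, and the odd library out is 7.07-fold to 31.8-fold away from the other of the 2 species.

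At the other end, 4334 peaks (22.3%) were within 1.25-fold of each other in *D. pseudoobscura* and *D. virilis*. Their median length was 349 bp, against 254 bp for the peaks 2-fold higher in *D. pseudoobscura* and 249 bp for those higher in *D. virilis*. Their median heights were 31.0 RPKM in *D. pseudoobscura*, 31.2 RPKM in *D. virilis*, 34.9 RPKM in Canton-S and 33.8 in FRT82. Among them both *D. melanogaster* strains were 2-fold or more above both species at 294 peaks and 2-fold or more below both at 194.

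The 5 regions that the study displays, at so, how, scrt, pdm3 and fred, held 27 peaks. The peaks were placed by those regions and not by an annotation of their own, and the study chose the regions as examples, so they do not stand for other genes. It showed pdm3 and fred for peaks gained in *D. melanogaster*, and how for a peak higher in *D. pseudoobscura*. These examples came from the same libraries, so finding those patterns again is no separate result. Of the 27, 7 differed 2-fold or more, 6 of them higher in *D. pseudoobscura*, against 39.1% of all peaks.

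At so (sine oculis, a homeobox transcription factor needed for the formation of the eye), 10 peaks had log2 ratios from -0.75 to 1.20. The peak at 2R 3312650 to 3312907 had 46.7 RPKM in *D. pseudoobscura* against 20.4 RPKM in *D. virilis*, with 23.5 RPKM in Canton-S and 31.8 in FRT82 (2.29-fold, interval 1.75 to 3.04). The peak at 2R 3319683 to 3320039 had 43.3 and 18.9 RPKM, with 22.2 and 43.7 RPKM in the strains (2.29-fold, 1.80 to 2.93). At both peaks the strains lay between the species or near one each. The peak of the region with the highest value in both species, at 2R 3316898 to 3317380, was 1.32-fold higher in *D. virilis* (interval 1.19 to 1.47), with 89.0 RPKM in *D. pseudoobscura*, 117.7 RPKM in *D. virilis*, 75.7 RPKM in Canton-S and 89.0 in FRT82. Its log2 ratio of -0.40 became -0.24 with RPKM from the counts and -0.16 with TMM-scaled counts, both outside the interval. Both peaks over the limit had a log2 ratio of 0.96 with RPKM from the counts, under 2-fold, and of 1.05 with TMM-scaled counts.

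At how (held out wings, an RNA-binding protein of the STAR family), 4 of 9 peaks differed 2-fold or more. The peak at 3R 17884918 to 17885147 had 53.5 RPKM in *D. pseudoobscura* against 9.69 RPKM in *D. virilis*, with 8.16 RPKM in Canton-S and 6.03 in FRT82 (5.53-fold, interval 3.67 to 8.65). *D. pseudoobscura* alone was high there. Both other peaks higher in *D. pseudoobscura* were little over the limit, at 2.02-fold and 2.12-fold. The 1 peak higher in *D. virilis*, at 3R 17901090 to 17901241, had 22.8 RPKM there and 8.62 RPKM in *D. pseudoobscura*, with 12.9 RPKM in Canton-S and 22.0 in FRT82 (2.65-fold, 1.52 to 4.79).

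At scrt (scratch, a zinc finger protein that promotes neuronal development), 1 of 5 peaks passed the limit. It lay at 3L 3980182 to 3980355, with 51.6 RPKM in *D. pseudoobscura*, 11.1 RPKM in *D. virilis*, 8.79 RPKM in Canton-S and 5.99 in FRT82 (4.66-fold, interval 3.00 to 7.56). *D. pseudoobscura* alone was high again. At pdm3 (a POU domain transcription factor) *D. pseudoobscura* and *D. virilis* were both low. The peak at 2R 4281825 to 4282158 had 6.82 and 8.39 RPKM in the 2 species, and 49.5 RPKM in Canton-S and 61.8 in FRT82. At 2R 4282213 to 4282442 they had 6.68 and 6.67 RPKM, and the strains 40.7 and 25.6 RPKM. At fred (friend of echinoid, an immunoglobulin domain protein), the peak at 2L 3933766 to 3933989 had 6.38 RPKM (18 reads) in *D. pseudoobscura*, 3.44 RPKM (7 reads) in *D. virilis*, 45.4 RPKM in Canton-S and 62.7 in FRT82. The interval of its ratio, 0.74 to 5.26, included equality. At these 3 peaks the *D. melanogaster* strains were higher than both species, which is the pattern for which the study displays pdm3 and fred. A difference between *D. pseudoobscura* and *D. virilis* was not detectable at this depth.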

How the data were processed

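FAIRE-seq was measured in 4 libraries of eye-antennal discs. Per the labels and the study's methods, the authors clipped adapters, aligned every library with Bowtie2 to the genome of its species (*D. melanogaster* release 5, *D. pseudoobscura* release 2, *D. virilis* release 1), converted them to *D. melanogaster* coordinates with liftOver (minimum match 0.1), used F-Seq (feature length 200) to call peaks library by library, merged them and counted reads without strand with HTSeq. Regions with 0 counts in a species, low RPKM or short length were removed by the authors. A region that did not convert is therefore not analysed here. The deposited counts are whole reads per peak. The deposited RPKM were normalized within and between libraries by the authors, with a tool not given in the sources used here, and 60.6% of the *D. pseudoobscura* values occur exactly among those of *D. virilis* (11765 of 19424), so libraries share levels and equal values at different peaks occur. One value a library and peak was used, and 0 columns of other samples were present.

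Ratios were taken from the deposited RPKM without a pseudocount, and a difference was called at 2-fold or more. Intervals were computed from the counts by the exact binomial (Clopper-Pearson) method, recentred on the RPKM ratio, and tested on simulated data. Alternatives were RPKM from counts, TMM (edgeR 4.0.16 in R 4.3.3) and median-of-ratios scaling of the counts, and quantile normalization of the deposited RPKM. Further ones were a pseudocount of 1 RPKM, centring by arm, other thresholds, a minimum of 50 reads and leaving out each strain. Other tools were Python 3.11.15, numpy 2.4.6, pandas 2.3.3, scipy 1.17.1 and matplotlib 3.10.9. The labels do not say whether discs of several cultures were pooled.

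Peaks were named by rule: the 10 largest ratios in each direction, the largest on each arm, the 3 largest clear cases of each combination with 20 or more reads, the 2 peaks on each side of the limit in each direction, the 5 highest, and all peaks in the regions the study displays. Not every named peak is described. Members, lists and rules were chosen with earlier results of these data known. Gene names were matched by symbol to RefSeq (5 of 5). Peak sequences were not used here.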

Additional observations from a re-analysis of the deposited data

How the results depend on the processing

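The count of peaks 2-fold or more apart stayed within 1.5 times of 7587 with every scaling tried, with a pseudocount and with arms centred. It was 1946 at 4-fold and 11716 at 1.5-fold. With 50 or more reads in both libraries it was 3246, a filter that by its construction removes peaks low in one species. The peaks higher in *D. pseudoobscura* numbered 1039, 6036 and 1477 under these 3 settings, and those higher in *D. virilis* 907, 5680 and 1769. The offset of 3L from 2L, 2R and 3R was -0.16 with 50 or more reads, and the offsets of the X and chromosome 4 kept their sign in every setting tried.

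The side of *D. melanogaster* was the result that depended most on processing. At peaks higher in *D. pseudoobscura*, the share nearer *D. pseudoobscura* (47.2%) was 50.6% with RPKM from the counts, 37.1% at 4-fold, 49.9% with 50 or more reads and 44.4% with arms centred, and with a single strain it was 46.2% to 49.3%. At peaks higher in *D. virilis*, the share (64.9%) was 47.9% with RPKM from the counts, 51.3% with TMM, 63.0% with quantile normalization, 74.4% at 4-fold, 61.3% with 50 or more reads and 67.5% with arms centred, and with a single strain 59.9% to 63.7%. At 4-fold, a combination chosen after the data were seen, it was 50.5% with TMM and 47.5% with RPKM from the counts. The cause of these shifts was not tested. Of 216 values of the 72 named peaks under other scalings, 203 lay inside the counting interval. Of the 43 named peaks that were 2-fold or more apart 0 changed direction, whereas 4 of the others, the largest of them 1.13-fold apart with the deposited RPKM, did so at 8 values. Most of the 43 were named for a large ratio, so a change of direction was unlikely from the start. Some of them fell below 2-fold with RPKM from the counts, such as 2R 3312650 to 3312907, with a log2 ratio of 0.96. The correlation of neighbours within 200 bp stayed between 0.39 and 0.41 under the settings added after the data were seen. Of these, TMM-scaled counts and RPKM from the counts must give the same correlation, since they differ by 1 factor a library. No paired analysis was possible because both species compared have a single library. Depth limits the size of the largest folds, where the lower library had as few as 4 reads.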
